A study of Mus musculus with 6 samples.

Results

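Acute phase proteins are blood proteins whose production changes during inflammation, and 9 of their genes were examined here in the kidney of a lupus-prone mouse: the 3 fibrinogen chains (Fga, Fgb, Fgg), 3 serum amyloid A genes (Saa1, Saa2, Saa3), haptoglobin (Hp), lipopolysaccharide binding protein (Lbp) and ceruloplasmin (Cp). Members were taken by gene name from the non-control probes of the arrays. They held 14 of the 56605 probes on the array, with 5 for Cp, 2 for Fga and 1 for each of the other genes. All 14 passed the filter on dim signals, which kept 39924 probes. Each had 1 spot per array, and none was saturated or marked as an outlier.

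The groups were female mice of 6 months of age, 3 per strain. MRL mice were MRL/MpJ, the control, and LPR mice were MRL/MpJ-Fas lpr/lpr, which carry the lpr mutation of Fas, a receptor that drives the death of lymphocytes, on the same background and develop a lupus-like disease. Total RNA of the kidney of each mouse was hybridised to 1 single-colour array. The mutation is present in every cell of LPR mice, so that a change in the kidney cannot be assigned to a kidney cell or to an infiltrating cell from the genotype.

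Most plasma acute phase protein is made by hepatocytes, in which interleukin 6, acting through STAT3, and interleukin 1, acting through NF-kB and C/EBP factors, raise transcription. Fibrinogen is a hexamer of paired alpha, beta and gamma chains that thrombin cleaves to fibrin. Serum amyloid A proteins are small apolipoproteins carried on high density lipoprotein, and Saa3 is known to be made outside the liver, by macrophages and adipocytes among others. The kidney can also make some of these proteins in tubules under stress.

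Of the 6 arrays, that of LPR mouse 1 was the brightest. The 75th percentile of its signal was 942 intensity units, against 706 to 759 on the other arrays. Of its non-control spots, 73.5% were well above background, against 69.6% to 70.9% on the others. Arrays of the same group correlated with r of 0.990 to 0.993 over the tested probes, and arrays of different groups with r of 0.961 to 0.971. In the comparison of LPR with MRL mice, 2606 of 39924 tested probes were higher in LPR mice and 2462 were lower at an adjusted p of 0.05 (limma). The median log2 change over all tested probes was -0.14, so that a probe at 0 lay slightly above the bulk. All 10 kidney markers, among them Umod, Slc34a1 and Nphs1, were well above background on every array. Of the probes for Fas, the brighter had a log2 change of -0.47 (SE 0.24, adjusted p = 0.234, limma), with all LPR mice below all MRL mice. The dimmer was not well above background in any MRL mouse and exceeded the MRL level by at least 1.47-fold in LPR mice. Its adjusted p of 0.0339 (limma) is that of the measured change, not of this bound. The dimmer probe passed the filter on dim signals only through the LPR mice, in which it was high.

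The probes of the genes that rose are shown here because Saa1 and Saa2 are near-identical genes, so that the stretch each probe covers bears on how its signal is read. They are given 5′ to 3′ as the array files list them, with mm9 coordinates. The Saa1 probe lay at chr7:53996070-53996129 on the minus strand, the Saa2 probe at chr7:54009535-54009594 on the plus strand, the Saa3 probe at chr7:53967559-53967618 on the minus strand, and the Lbp probe was a 60-base sequence spread over chr2:158154142-158157684 on the plus strand, a span of 3543 bases that includes an intron.
Saa1: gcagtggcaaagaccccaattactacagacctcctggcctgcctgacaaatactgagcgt
Saa2: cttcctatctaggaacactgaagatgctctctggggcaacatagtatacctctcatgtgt
Saa3: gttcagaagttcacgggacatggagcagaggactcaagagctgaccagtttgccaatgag
Lbp: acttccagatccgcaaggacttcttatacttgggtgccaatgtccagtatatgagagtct
No pair among the 14 member probes shared a run of more than 8 bases. Whether the Saa1 probe also binds the Saa2 transcript, or the reverse, was not tested. RefSeq lists Saa2 as an older name of Saa1 and Saa1 as an older name of Saa2. The RefSeq accession of 13 of the 14 probes carried the gene name given by the array, these 2 genes included.

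Serum amyloid A and Lbp rose in the LPR kidney, and the fibrinogen chains, Hp and Cp did not pass the test in either direction. Higher signals were found for 4 of the 14 member probes, those of Saa1, Saa2, Saa3 and Lbp, against 6.53% of all tested probes. Saa2 passed the filter on dim signals only through the LPR mice, so that its place in this count depends on that filter. The call of Saa1 was lost in 10 of 18 alternative ways of processing. None of the 14 was lower, against 6.17% of all tested probes, and none had an unadjusted p under 0.05 for a decrease, by limma or by the methods' t-test. The same 4 probes were those with all LPR mice above all MRL mice, an arrangement found in 11% of all tested probes. The opposite arrangement, found in 26.9%, was seen in none of the 14. The median log2 change of the 14 member probes was 0.21, beside -0.14 for all tested probes.

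**Figure D1:**
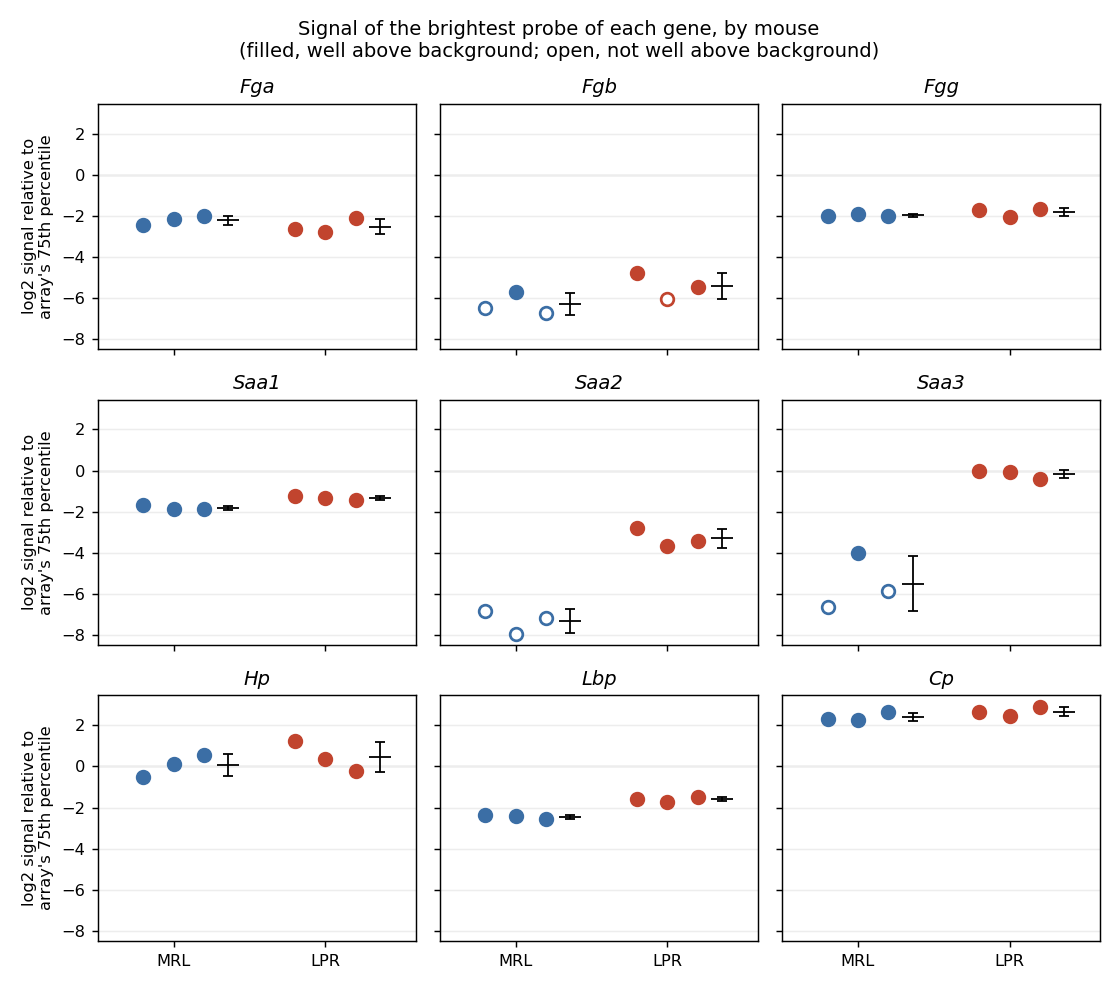
The log2 signal relative to the array's 75th percentile (vertical axis) is plotted for the brightest probe of each of the 9 genes in 3 MRL mice (blue) and 3 LPR mice (red), with filled points well above background, open points not, and bars giving the mean and SD. The groups are separate for Saa1, Saa2, Saa3 and Lbp and overlap for the other genes.

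Saa3 had the largest measured log2 change of the 9 genes, beside Saa2, whose change is known only as a lower bound. Its log2 signals, relative to the 75th percentile of each array, were -6.63, -3.99 and -5.83 in MRL mice 1 to 3 and -0.0065, -0.07 and -0.39 in LPR mice 1 to 3. The LPR mice lay close together and all above the MRL mice, of which only MRL mouse 2 was well above background. The mean rose from -5.48 ± 1.36 (SD, n = 3) to -0.15 ± 0.20 (SD, n = 3), a log2 change of 5.33 (SE 0.61, 95% interval 3.88 to 6.77) or 40.2-fold (adjusted p = 0.00198, limma). With 99.7% of tested probes below it, the change stood near the top of the array. The size rested on dim MRL signals, and 3 of the 4 arrays that took the probe past the filter on dim signals were those of LPR mice. With normexp, a background correction that fits the scanner's mean and background signals, it was 2.99, and without MRL mouse 2 it was 6.08. Normexp here also added an offset of 50 to every signal, which narrows the log2 changes of dim probes.

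Saa2, the other strongly changed serum amyloid A gene, was undetected in MRL mice. Signals of -6.80, -7.93 and -7.17 in MRL mice 1 to 3 were all not well above background, and those of -2.77, -3.68 and -3.43 in LPR mice 1 to 3 all were. Every LPR mouse thus lay far above every MRL mouse. Against the lowest signal that counts as well above background, the LPR level of Saa2 was higher by at least 6.31-fold. Such a bound uses, on each MRL array, the higher of that lowest signal and the probe's own. The adjusted p of 0.000476 (limma) is that of the difference between the measured means, not of the bound. Saa2 passed the filter on dim signals, well above background on at least 3 of 6 arrays, only through the LPR mice in which it was high, so that this p belongs to a probe the filter kept for that group. With no such filter, over all 56605 probes, its adjusted p was 0.00224 (limma). The measured means were -7.30 ± 0.58 and -3.29 ± 0.47 (SD, n = 3 each), and under normexp the log2 change was 0.88 (adjusted p = 0.000344, limma). That is below the bound, 2.66 on the log2 scale, which thus does not hold under normexp. Under the other alternatives in which Saa2 was tested, the log2 change was 2.66 to 4.54, resting on the same dim MRL signals.

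Saa1 was detected in both groups. It was well above background in all 6 mice, at -1.68, -1.86 and -1.88 in MRL mice 1 to 3 and -1.26, -1.33 and -1.42 in LPR mice 1 to 3. The groups did not overlap, but the gap between them was 0.26. The log2 change was 0.47 (SE 0.11, 95% interval 0.21 to 0.73), or 1.39-fold (adjusted p = 0.0357, limma). The direction was kept under all 18 alternatives, but the call was lost in 10 of them, with each of the 6 mice left out included, at adjusted p-values up to 0.124.

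Whether the changes of these genes differed from each other could not be settled with 3 mice per group. For 4 pairs, the difference between the log2 signals of both probes within each mouse was compared between the groups by an exact two-sided permutation test, whose smallest p with 20 regroupings is 0.1 (0.133 adjusted over the 4 pairs). The change of Saa3 was above that of Saa1 by 4.86, with Saa3 well above background in 1 MRL mouse, and the change of Lbp was above that of Saa1 by 0.40, each with p = 0.1 by this exact test. The other pairs, Saa2 with Saa1 and Saa3 with Saa2, are not given as sizes because Saa2 was not well above background in any MRL mouse.

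Lbp, which carries bacterial lipopolysaccharide to CD14 and Toll-like receptor 4, rose in every LPR mouse. Its signals were -2.38, -2.42 and -2.57 in MRL mice 1 to 3 and -1.56, -1.71 and -1.48 in LPR mice 1 to 3. No LPR mouse overlapped the MRL mice, and the spread within each group was small beside the gap. The log2 change was 0.87 (SE 0.11, 95% interval 0.61 to 1.14), or 1.83-fold (adjusted p = 0.00345, limma). It stayed past the threshold in all 18 alternatives, of which the block for the slide part compares 1 LPR mouse with the MRL mice, at log2 changes of 0.64 to 0.94.

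**Figure D2:**
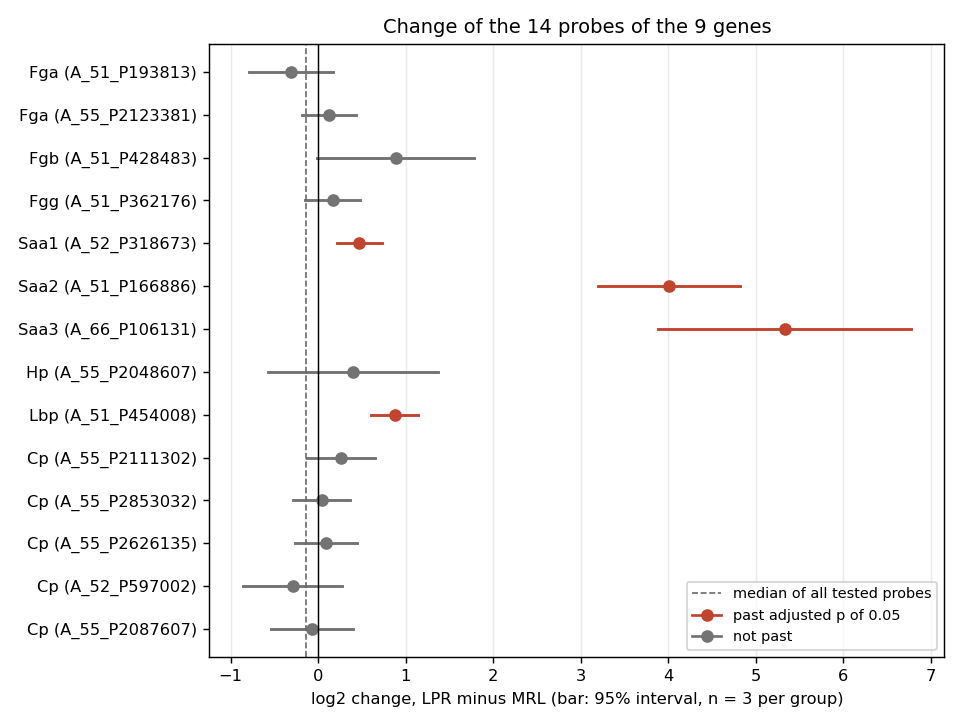
Log2 change between LPR and MRL mice (horizontal axis) with its 95% interval, for each of the 14 probes. The intervals of Saa1, Saa2, Saa3 and Lbp lie wholly above 0 and the other 10 cross 0. That of Saa2 is of the measured signals, none of them well above background in MRL mice. The dashed line is the median of all tested probes, -0.14.

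Markers of infiltrating cells were, like these 4 genes, often higher in LPR mice. Of all named genes, 7.11% were higher and 5.49% lower. Of 8 macrophage markers, 7 were higher in LPR mice, and their summed signal, in units of the 75th percentile of the array, rose from 22.6 to 30.0 in MRL mice to 113 to 125 in LPR mice. The largest part of the LPR sum came from Lyz2, with a mean log2 signal of 6.35 in LPR mice and 3.20 in MRL mice. Of 10 leukocyte markers, 7 were higher (17.8 to 21.0 against 33.5 to 36.5). Adgre1 and Csf1r are in both lists. Of 8 neutrophil markers, 3 were higher, S100a8, S100a9 and Mpo, and 5 were not past the threshold (2.62 to 3.16 against 5.94 to 12.5). Their part in the rise of Saa2, Saa3, Saa1 and Lbp was not tested. In whole kidney, fewer or more cells of a type and less or more RNA per cell cannot be told apart. Of 13 hepatocyte markers, Ahsg, Cyp7a1 and Cyp8b1 were well above background on fewer than 3 of 6 arrays, 1 of the 10 tested was higher (Apoh) and 1 lower (Ttr), and Alb, the albumin gene, had a log2 change of -0.53 (adjusted p = 0.419, limma). The summed hepatocyte signal was 29.5 to 32.7 in MRL mice and 32.0 to 41.5 in LPR mice.

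The fibrinogen chains were measured with 4 probes, of which none was called and all had overlapping groups. Among all tested probes, 12.7% were called in either direction and 24774 of 39924 had overlapping groups, so that such counts are common. Fgg, the gamma chain, was at -2.01, -1.89 and -2.01 in MRL mice 1 to 3 and -1.71, -2.04 and -1.67 in LPR mice 1 to 3. LPR mouse 2 lay below all MRL mice and the others above. The log2 change was 0.17 (SE 0.13, adjusted p = 0.425, limma), and its 95% interval ran from -0.14 to 0.48, or at most a 1.39-fold increase. Its probe lay at chr3:82818825-82818884 (mm9).

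For Fga, the alpha chain, the probes did not differ from each other in call. The brighter, at chr3:82835678-82835737, read -2.45, -2.15 and -2.02 in MRL mice 1 to 3 and -2.64, -2.79 and -2.12 in LPR mice 1 to 3. LPR mouse 3 lay among the MRL mice and the other LPR mice below them. The log2 change was -0.31 (SE 0.20, 95% interval -0.79 to 0.17, adjusted p = 0.342, limma). The dimmer, at chr3:82837260-82837319, ranged from -4.63 to -4.40 in MRL mice and from -4.62 to -4.31 in LPR mice, with a log2 change of 0.13 (SE 0.13, adjusted p = 0.547, limma).

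The beta chain, Fgb, sat at the edge of detection. Its probe, at chr3:82846334-82846393 on the minus strand, read -6.45, -5.67 and -6.73 in MRL mice 1 to 3 and -4.75, -6.01 and -5.43 in LPR mice 1 to 3. MRL mouse 2 and LPR mice 1 and 3 were well above background, and LPR mouse 2 fell below MRL mouse 2. The log2 change was 0.89 (SE 0.38, 95% interval -0.01 to 1.79, adjusted p = 0.169, limma). Under normexp it was 0.03, and it ranged from 0.562 to 1.196 when 1 mouse was left out. Fgb was thus not past the threshold, and its interval included both no change and a rise.

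Hp, whose product binds free haemoglobin for uptake through CD163, had the widest spread among the members well above background in all 6 mice. Its signals were -0.51, 0.14 and 0.54 in MRL mice 1 to 3 and 1.24, 0.35 and -0.23 in LPR mice 1 to 3, at chr8:112099045-112099104 (mm9, minus strand). LPR mouse 1 was the highest of the 6 and LPR mouse 3 lay below 2 of the MRL mice. The log2 change was 0.40 (SE 0.41, 95% interval -0.58 to 1.37, adjusted p = 0.543, limma). It was 0.0057 without LPR mouse 1 and 0.74 without LPR mouse 3, and remained short of the threshold in each case (adjusted p of 0.994 and 0.288, limma).

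Adipocyte markers varied between the same mice. Their summed signal was 42.3 to 56.6 in MRL mice, 33.0 and 32.7 in LPR mice 1 and 2, and 11.4 in LPR mouse 3. Of the 6 markers, Fabp4 was lower in LPR mice and the other 5 were not past the threshold. Adipoq, which encodes adiponectin, read 0.46, 1.01 and 0.79 in MRL mice 1 to 3 and 0.10, -0.05 and -3.07 in LPR mice 1 to 3. LPR mouse 3 was thus the lowest in both the adipocyte signal and, among LPR mice, Hp. Over all 6 mice the order was not shared. The lowest Hp signal, -0.51, was in MRL mouse 1, whose adipocyte sum was 42.3. The highest, 1.24, was in LPR mouse 1, whose sum was 33.0. The part of fat tissue in the spread of Hp was not tested.

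Cp, a copper-carrying ferroxidase that loads iron onto transferrin, was the only member with several probes along the gene. None of the 5 was called, against 12.7% of all tested probes called in either direction. All were well above background in every mouse. The brightest, at chr3:19889071-19889130, read 2.32, 2.26 and 2.65 in MRL mice 1 to 3 and 2.62, 2.47 and 2.91 in LPR mice 1 to 3. LPR mouse 3 was above all MRL mice, and the others lay below MRL mouse 3. Its log2 change was 0.26 (SE 0.16, 95% interval -0.12 to 0.65, adjusted p = 0.315, limma).

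The other Cp probes, at chr3:19869171-19869230, chr3:19874934-19874993, chr3:19907511-19907570 and chr3:19909387-19909446, had log2 changes of 0.04, 0.09, -0.07 and -0.29, each with a 95% interval that crossed 0. The probes at chr3:19907511-19907570 and chr3:19909387-19909446 each belong to another RefSeq transcript variant than the brightest probe. That at chr3:19869171-19869230 was not matched to RefSeq. The probe at chr3:19909387-19909446 read -0.73, -0.89 and -0.55 in MRL mice 1 to 3 and -0.77, -1.56 and -0.71 in LPR mice 1 to 3, so that LPR mouse 2 alone stood apart. Over the 5 probes the median log2 change was 0.04.

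The sequence before the start site of the serum amyloid A genes is shown because all 3 of these genes were called higher. The call of Saa1 was lost in 10 of 18 alternatives. That of Fgb is shown because the promoter carries motifs of the same pathway without a call. Promoters are from RefSeq (GRCm38.p6), 250 bases before and 50 after the start site, printed 5′ to 3′ along the gene. Sequences were matched for 7 of the 9 members, and those of Hp and Lbp were not used here. Saa1 is at chr7:46742931-46743230 (minus strand), Saa2 at chr7:46751583-46751882 (plus strand), Saa3 at chr7:46715627-46715926 (minus strand) and Fgb at chr3:83049814-83050113 (minus strand). Capitals mark matches, on either strand, to CTGGGAA (interleukin 6 response element), TTCNNNGAA (STAT), TTGCNNAA (C/EBP), GGGNNTTTC (NF-kB) or TATAAA (the core promoter box).
Saa1: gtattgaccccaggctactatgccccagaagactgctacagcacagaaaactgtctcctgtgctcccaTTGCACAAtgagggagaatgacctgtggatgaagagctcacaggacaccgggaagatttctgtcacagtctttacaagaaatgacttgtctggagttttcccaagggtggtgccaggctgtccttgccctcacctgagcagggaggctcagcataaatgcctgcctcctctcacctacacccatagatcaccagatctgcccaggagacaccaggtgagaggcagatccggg
Saa2: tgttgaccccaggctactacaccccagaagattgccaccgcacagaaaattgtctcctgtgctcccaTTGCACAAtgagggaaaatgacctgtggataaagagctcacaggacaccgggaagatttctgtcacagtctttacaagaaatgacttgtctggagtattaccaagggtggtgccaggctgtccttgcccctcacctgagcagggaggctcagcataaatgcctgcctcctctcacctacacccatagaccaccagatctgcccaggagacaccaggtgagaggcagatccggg
Saa3: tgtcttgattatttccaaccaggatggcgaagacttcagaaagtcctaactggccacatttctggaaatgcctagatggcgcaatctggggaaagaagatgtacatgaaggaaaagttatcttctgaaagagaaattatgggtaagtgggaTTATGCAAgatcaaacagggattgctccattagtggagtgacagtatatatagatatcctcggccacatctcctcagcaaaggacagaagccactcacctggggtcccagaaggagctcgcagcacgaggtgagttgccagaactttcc
Fgb: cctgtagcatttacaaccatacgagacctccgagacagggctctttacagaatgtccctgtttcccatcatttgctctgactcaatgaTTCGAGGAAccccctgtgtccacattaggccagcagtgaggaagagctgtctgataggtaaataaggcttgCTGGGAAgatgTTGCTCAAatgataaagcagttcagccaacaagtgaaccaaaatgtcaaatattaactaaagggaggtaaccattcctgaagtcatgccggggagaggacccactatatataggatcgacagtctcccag
The promoters of Saa1 and Saa2 were identical at 287 of 301 aligned positions (95.3%), and each held 1 match, a C/EBP motif, from position -182 in Saa1 and -183 in Saa2 relative to the start site. Saa3, with 54.2% and 54.0% identity to them, held a C/EBP motif from position -99. The C/EBP letters were found in 6 of the 8 promoter entries of the members (Cp has 2), and in 10.8% of all 32851 promoters of the same length. CTGGGAA was found in Fgb and Fgg (11.1% of all promoters) and the STAT letters in Fga and Fgb (8.30%). TATAAA was found in 1 Cp entry (13.6%), on both strands with an overlap. The NF-kB letters were in none (4.36% of all). Letters that match are a description, not a binding site.

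On the same assembly, the 3 fibrinogen genes lie side by side within 42.1 kb of chromosome 3 with no other protein-coding gene between them, and Saa3, Saa1 and Saa2 lie within 42.3 kb of chromosome 7 together with Saa4. Saa4, which lies between Saa3 and Saa1, was well above background on fewer than 3 arrays and was not tested.

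Other genes of the acute phase response were taken from lists, each gene by its brightest tested probe. Over all 21089 named genes, 7.11% were higher in LPR mice and 5.49% lower. Of 24 other positive acute phase proteins, 20 were tested, with 3 higher, 2 lower and a median log2 change of 0.41. Serpina3n, a serine protease inhibitor, rose by a log2 of 2.17 (adjusted p = 0.000319), Lcn2, an iron-siderophore binding protein of neutrophils and injured tubules, by 2.14 (adjusted p = 0.00483), and Itih4, of the inter-alpha-trypsin inhibitor family, by 1.08 (adjusted p = 0.00338, all limma). Another probe for Itih4 was not called. The orosomucoids Orm1 and Orm3 fell by 1.92 and 0.83 on the log2 scale (adjusted p of 0.0356 and 0.00931, limma). In LPR mice, Orm3 was well above background in 1 of 3.

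Negative acute phase proteins, whose plasma levels fall in inflammation, did not move one way. Of 9, 7 were tested, with 1 higher and 2 lower. Serpina6, the corticosteroid binding globulin, fell by 4.66 on the log2 scale, or 25.3-fold (adjusted p = 0.000777, limma). Ttr, transthyretin, fell by 1.39 (adjusted p = 0.0314, limma). Apoh, the phospholipid-binding beta-2-glycoprotein I, rose in contrast. Its signals were -5.84, -7.26 and -5.23 in MRL mice 1 to 3 and -1.57, -2.70 and -1.52 in LPR mice 1 to 3. Only 1 MRL mouse was well above background, and the groups were far apart, with a log2 change of 4.18 (SE 0.55, adjusted p = 0.00384, limma).

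The cytokines that induce acute phase genes, with their receptors and transcription factors, rose more often than they fell. Of 24, 23 were tested, with 7 higher and 1 lower. Oncostatin M, Osm, an interleukin 6 family cytokine, read -5.65, -5.24 and -5.69 in MRL mice 1 to 3 and -2.99, -2.96 and -3.31 in LPR mice 1 to 3. These groups did not overlap, with a log2 change of 2.44 (SE 0.17, adjusted p = 0.000175, limma). Il1b rose by 2.26 (adjusted p = 0.0125) and Socs3, the feedback inhibitor of STAT3 signalling, by 2.19 (adjusted p = 0.000725, both limma). Il6 itself was well above background in 1 MRL mouse and 3 LPR mice, and its log2 change of 1.79 was not past the threshold (SE 0.75, adjusted p = 0.162, limma). Macrophage markers (7 of 8 higher, summed signal 22.6 to 30.0 in MRL mice and 113 to 125 in LPR mice) also rose in LPR mice. So did leukocyte markers (7 of 10 higher). The part of these markers' cells in the changes was not tested.

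**Figure D3:**
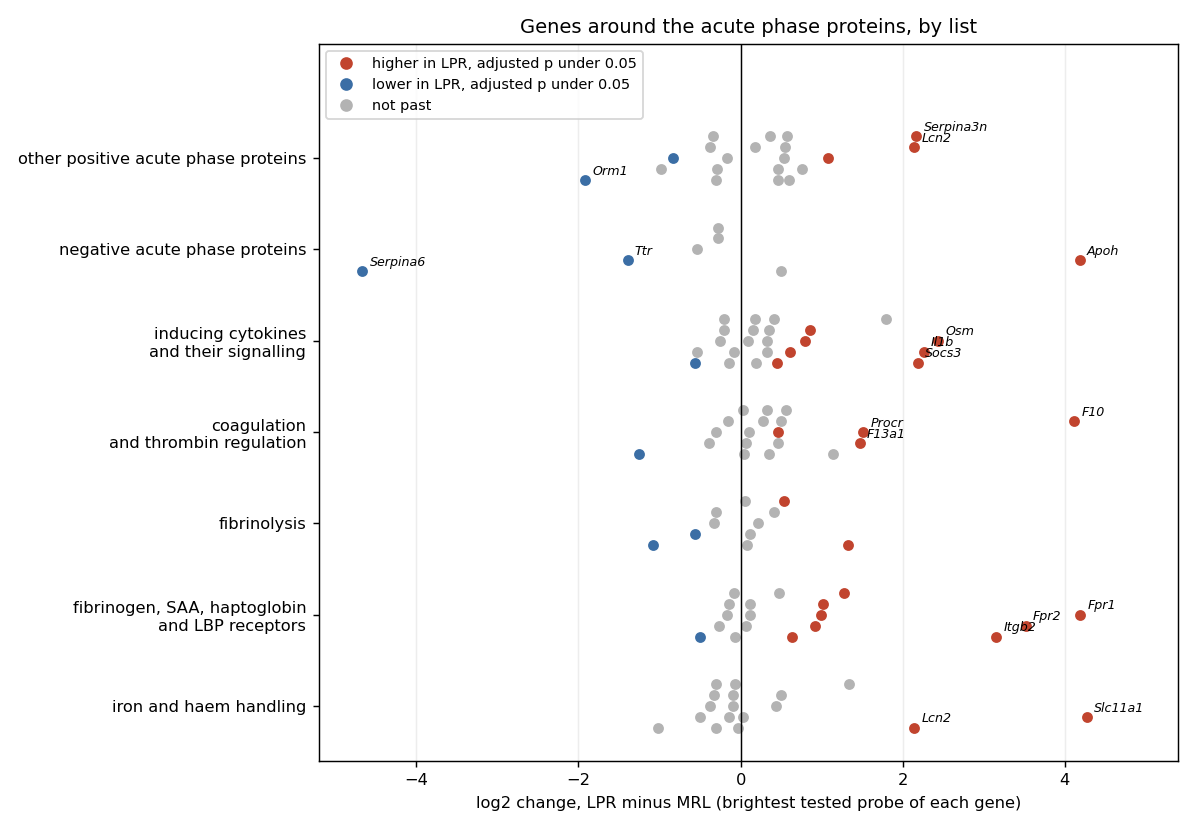
Log2 change between LPR and MRL mice (horizontal axis) for each tested gene of 7 lists (rows), with red points higher, blue points lower and grey points not past an adjusted p of 0.05. Vertical jitter within a row has no meaning. Each list has points on both sides of 0, and Serpina6 at -4.66 and Slc11a1 at 4.27 are the ends of the range.

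Around fibrin, 22 coagulation genes and 12 genes of fibrinolysis were listed. Among the 19 coagulation genes tested, 4 were higher and 1 lower. F10, coagulation factor X, rose by 4.11 on the log2 scale (SE 0.25, adjusted p = 0.000103), Procr, the endothelial protein C receptor, by 1.51 (adjusted p = 0.000402), and F13a1, the factor XIII chain that crosslinks fibrin, by 1.47 (adjusted p = 0.000428, all limma). Another probe for F13a1 was not called. The macrophage and leukocyte markers rose in the same LPR mice, to 113 to 125 from 22.6 to 30.0 for the summed macrophage signal, and their part in the rise of F10, Procr and F13a1 was not tested. F5, coagulation factor V, fell by 1.25 (adjusted p = 0.000878, limma). Among the 11 fibrinolysis genes tested, 2 were higher and 2 lower. Serpine2, a serine protease inhibitor, rose by 0.53 (adjusted p = 0.0359, limma). Serpinf2, the plasmin inhibitor, and Plat, the tissue plasminogen activator, fell by 1.08 and 0.57 (adjusted p of 0.0256 and 0.0431, limma). Other probes for Serpine2 and Plat were not called. Plg, plasminogen, was well above background in 2 mice of each group, with a log2 change of 0.21 (adjusted p = 0.843, limma).

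Receptors of these proteins gave the highest count among the lists. Of 18, all were tested, with 8 higher and 1 lower. Fpr1 and Fpr2, formyl peptide receptors of which Fpr2 binds serum amyloid A, rose by 4.19 and 3.51 (adjusted p of 0.029 and 0.00226, limma), with Fpr1 well above background in 1 MRL mouse. Itgb2, the beta chain of the leukocyte integrin that binds fibrinogen, rose by 3.15 (adjusted p = 0.000672, limma). Itgam, listed with Itgb2 as a leukocyte integrin chain, had a log2 change of -0.09 (adjusted p = 0.783, limma). Itgav fell by 0.50 (adjusted p = 0.0358, limma), while its 3 other tested probes were not called. Of the receptors for Lbp complexes, Cd14 rose by 0.91 (adjusted p = 0.0164, limma) and Tlr4 had a log2 change of 0.11 (95% interval -0.14 to 0.36, adjusted p = 0.496, limma). Cd163, the haptoglobin receptor, had a log2 change of -0.07 (adjusted p = 0.833, limma). Macrophage and leukocyte markers, given above, rose in the same LPR mice as Itgb2, Fpr1 and Fpr2, and their part in these changes was not tested.

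Iron and haem genes, among which Hp and Cp act, had 17 of 18 tested, with 2 higher and none lower. The 2 were Slc11a1, an iron transporter of phagocytes, which rose by 4.27 on the log2 scale (adjusted p = 9.7e-05, limma), and Lcn2.

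Over the 6 mice, the genes whose signals followed those of Saa3 most closely, of 23323 genes well above background on all arrays, were Clec2g (r = 0.997), Fkbp10 (r = 0.996) and Bace2 (r = 0.995), and 561 genes had r above 0.95. These points share the difference between the groups. Hp was followed by Rab13 (r = 0.991), Prr14l (r = 0.984) and Ubn1 (r = 0.970), with 4 genes above 0.95. For Fgb, near the detection limit, the closest were Jam3 (r = 0.989), Gins1 (r = 0.985) and Chaf1a (r = 0.980). These values are descriptions over 6 arrays.

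The arrays lay on 1 slide, and its first part held all MRL mice with LPR mouse 1. A fit with the slide part as a block therefore compares LPR mouse 1 alone with the 3 MRL mice, and assumes that this mouse varies like the others, since the spread comes from the MRL mice and from LPR mice 2 and 3. There the log2 change was 5.48 for Saa3, 4.54 for Saa2, 0.90 for Lbp and 0.55 for Saa1. For Saa2 this is the measured difference, with no MRL signal well above background. Hp, not past the threshold, was at 1.18 there and Fgb, also not past it, at 1.54. These values rest on 1 LPR mouse. The second part held LPR mice only and gave no value.

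**Figure D4:**
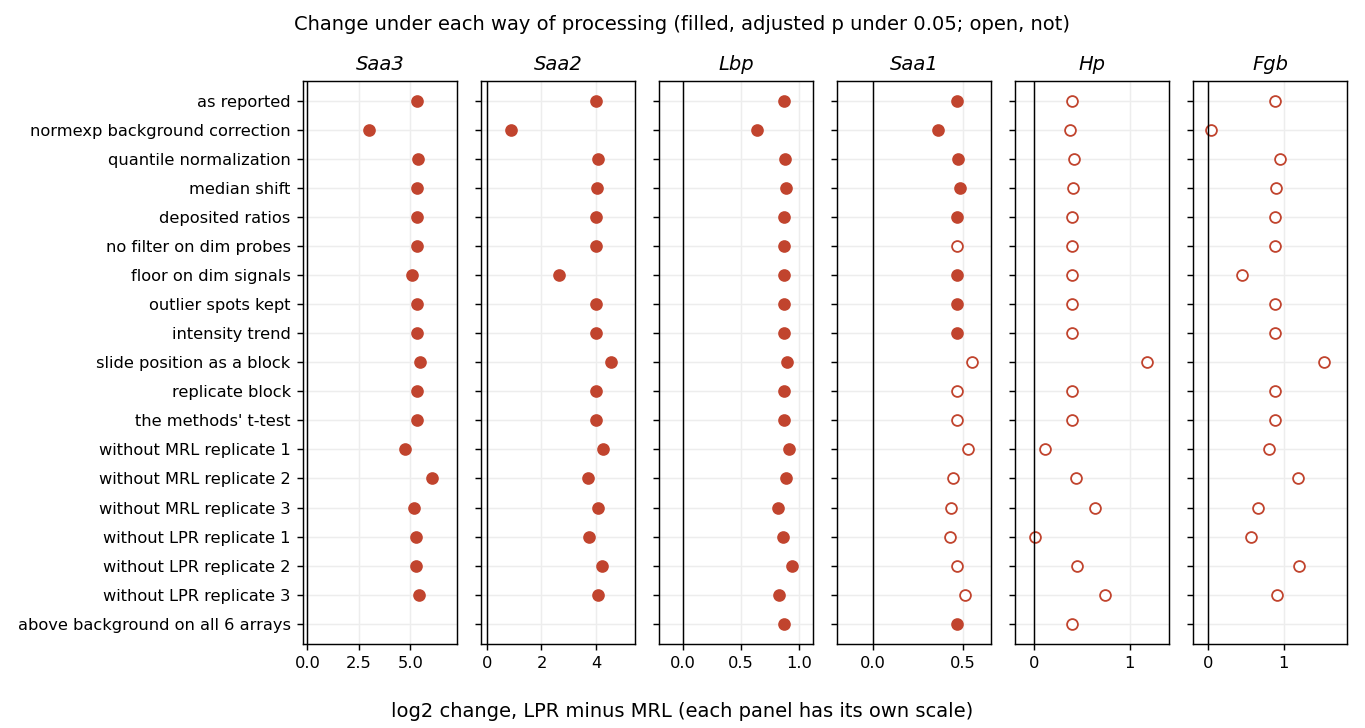
Log2 change between LPR and MRL mice (horizontal axes, each panel with its own scale) of 6 genes under each way of processing (rows), with filled points past an adjusted p of 0.05 and open points not. Saa3, Saa2 and Lbp are filled in every row where they were tested, Saa1 is open in 10 rows, and Hp and Fgb are open throughout.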

How the data were processed

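Kidney RNA of 6 mice was hybridised to Agilent SurePrint G3 Mouse 8x60K arrays with Cy3 and scanned, and the authors extracted signals with Feature Extraction 12.0.3.1, per the file headers. The deposited intensity values are processed signals (background subtracted), with flags for spots well above background. A deposited series table holds the same signals as a ratio to 1 constant per array. The authors applied a 75th percentile shift. From the intensities, log2 signals were set relative to the 75th percentile of each array, spots flagged as outliers were left out, and probes well above background on at least 3 of 6 arrays were tested with limma 3.58.1 in R 4.3.3 (lmFit and eBayes, LPR minus MRL, Benjamini-Hochberg over 39924 probes, threshold 0.05). On simulated data the fit recovered 139 of 200 changed probes, with 12 false calls among the rest of 39924. It recovered 51 of the smaller changes and 88 of the larger, so that a changed probe can go uncalled. The simulation held a far smaller share of changed probes than the 12.7% called in these data, so its recovery rate does not carry over.

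Alternatives were normexp (offset 50), quantile and median normalisation, the deposited ratios, other filters and floors, blocks for slide part and replicate number, the methods' t-test and each mouse left out. The members and lists were chosen with earlier results of these data known. The text gives all member probes and the 3 genes of each list that changed most in each direction. It also gives Il6, Cd163, Tlr4, Cd14, Plg and Itgam, and the 3 genes most like Fgb, Saa3 and Hp. The values of 2 listed genes that the list counts include are not reported here. Labels number the kidneys within each strain, and p-values measure the spread between these samples, whose number limits the precision. Sequences of Hp and Lbp promoters and of proteins were not used here. Motifs and alignments used Biopython 1.88.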

Additional observations from a re-analysis of the deposited data

How the results depend on the processing

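Saa3, Saa2 and Lbp kept their direction and their call under every alternative in which they were tested, where the block for the slide part leaves LPR mouse 1 alone against the MRL mice. The filter on all 6 arrays above background removed Saa3 and Saa2 and left 2 member probes higher, the other alternatives gave 3 or 4, and leaving out 1 mouse gave 3 in each case because the call of Saa1 was lost. No member probe was lower under any alternative. Over all probes, the number higher was 1458 with the slide part as a block and 1736 with the methods' t-test, against 2606, and 1958 to 2370 with 1 mouse left out. The number lower, 2462, was far less stable: 4498 with normexp, 1093 without a filter on dim probes, 463 with the slide part as a block, 1117 with the replicate block, 1386 with the methods' t-test and 760 (without MRL mouse 2) to 2269 with 1 mouse left out. It was also 839 and 827 without MRL mice 1 and 3, 1503 without LPR mouse 1 and 900 without LPR mouse 3. The cause was not tested.

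Direction turned only for probes that were not called. The dimmer Fga probe was at -0.0598 under normexp. The Cp probe at 0.04 turned to -0.0292 with the slide part as a block and ran from -0.0757 (without LPR mouse 3) to 0.1214 with 1 mouse left out, turning also without MRL mouse 2 (-0.0226). That at 0.09 ran from -0.0323 (without LPR mouse 3) to 0.226 with 1 mouse left out. That at -0.07 turned to 0.0454 with the slide part as a block and ran from -0.192 to 0.106 (without LPR mouse 2) with 1 mouse left out, turning also without MRL mouse 3 (0.0655). Saa1 had an adjusted p of 0.0739 without a filter on dim probes, 0.0648 with the replicate block and 0.0509 with the methods' t-test.

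Mice with the same number did not deviate together in every pair (r of 0.12, 0.02 and 0.01 over the tested probes), so the numbers were taken as names. The replicate block ended the call of Saa1 and of no other member probe. The median change of all tested probes ranged from -0.17 to -0.12 over the alternatives. Fgb, Saa2 and Saa3 were limited by signals near background in MRL mice.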
